A study of Mus musculus with 4 samples.

Results

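The 10 genes described here are imprinted genes with roles in growth, namely H19, Igf2, Cdkn1c, Grb10, Plagl1, Mest, Peg3, Ndn, Dlk1 and Meg3. The set was chosen by the expression value of H19, which had been seen to be high in 1 of 4 libraries, and its members were taken by symbol from 2 deposited tables of bone marrow stromal cells. All 10 were found among the 24319 gene entries used, none of them in an entry shared with another gene. Polyadenylated RNA had been sequenced from primary mouse marrow cells labelled as mesenchymal stem cells, the adherent cells that can form bone, fat and cartilage. The cells were labelled wildtype (WT) or KDM4B KO (KO), a knockout of the histone demethylase gene Kdm4b, and were kept for 4 days with or without osteogenic induction, the treatment that drives such cells towards osteoblasts. The 4 groups, WT control, KO control, WT induced and KO induced, held 1 library each. Strain, age, sex, the allele of the knockout, the number of animals and the induction agents were not stated in the labels used here.

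An imprinted gene is expressed mainly from the allele inherited from one parent, because an imprinting control region carries DNA methylation set in the egg or the sperm. Many imprinted genes act on fetal growth, those expressed from the paternal allele tending to promote it and those from the maternal allele to restrain it, and a number of them fall in expression after birth. In the mouse, H19, Cdkn1c, Meg3 and, outside neurons, Grb10 are expressed from the maternal allele, while Igf2, Plagl1, Mest, Peg3, Ndn and Dlk1 are expressed from the paternal allele. Gene-level values do not separate the alleles, so nothing below bears on imprinting itself.

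Levels are in FPKM (fragments per kilobase of transcript, adjusted for sequencing depth), a unit that allows for length and so can be compared between genes. Differences are log2 ratios taken after adding 1 to each FPKM, which makes the change of low genes look smaller, and folds are plain ratios of FPKM. The size rule for higher or lower was 2-fold or more after adding 1, in genes that reached 1 FPKM in either library. Since each group was a lone library, no difference below has a test, a standard error or a check against the spread between cultures. Kdm4b itself was at 4.60, 4.30, 5.83 and 4.26 FPKM in the WT control, KO control, WT induced and KO induced libraries. In the libraries labelled KO it was at most 0.38 lower on the log2 scale, within the size rule in both media, and its gene-level value was not lost. Such a value cannot show whether a part of the transcript was missing, and the allele of the knockout was not stated. The WT induced library stood apart in markers of sex, with Ddx3y, a Y-linked gene, at 28.7 FPKM against at most 0.0208 FPKM elsewhere, and Xist, which silences an X chromosome in females, at 0.0621 FPKM against 21.6 to 30.5 FPKM. Genotype, medium and these differences cannot be told apart in any value of that library. Macrophage markers were abundant in all 4 libraries, with Lyz2 at 6734 to 7937 FPKM beside 235 to 836 FPKM of the stromal collagen gene Col1a1, so the cells were not stromal cells alone. In such a mixture, fewer cells of a type and less RNA per cell cannot be told apart.

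Promoter sequences are shown for the 5 members whose start region holds a motif tied to imprinting, with 1 matching window each. All 10 members were highest or lowest in the WT induced library, so that trait does not set these 5 apart. In the mouse, the zinc finger protein ZFP57 binds a methylated hexamer, TGCCGC, at imprinting control regions and keeps them methylated in the embryo. RefSeq windows of 300 bases, 250 before and 50 after each annotated start on GRCm38.p6, were held for 8 of the 10 members and were searched for this hexamer on both strands. It was found in windows of 5 of these 8 members, Plagl1, Grb10, Mest, Igf2 and Meg3. Of the 15 windows of all 8 members, 6 held it, and the matching pair of Mest overlap. Over the whole table it was found in 13.1% of 27025 genes and in 11.6% of 32851 windows. The hexamer contains CG, and the windows of these genes varied widely in CG content, so the match is a description and not a binding site. The Plagl1 window (chr10:13090582-13090881, plus strand) held 26 CG dinucleotides, the Grb10 window (chr11:12037371-12037670, minus strand) 45, the Mest window (chr6:30737800-30738099, plus strand) 17, the Igf2 window (chr7:142661222-142661521, minus strand) 14 and the Meg3 window (chr12:109540746-109541045, plus strand) 13. They are given in the direction of transcription with each hexamer in capitals, where GCGGCA is its reverse complement.
Plagl1: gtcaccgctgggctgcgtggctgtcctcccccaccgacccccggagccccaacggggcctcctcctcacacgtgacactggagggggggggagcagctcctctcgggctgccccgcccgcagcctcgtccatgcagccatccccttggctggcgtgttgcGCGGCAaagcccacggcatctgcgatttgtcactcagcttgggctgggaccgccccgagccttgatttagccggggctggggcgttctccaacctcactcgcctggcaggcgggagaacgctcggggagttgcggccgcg
Grb10: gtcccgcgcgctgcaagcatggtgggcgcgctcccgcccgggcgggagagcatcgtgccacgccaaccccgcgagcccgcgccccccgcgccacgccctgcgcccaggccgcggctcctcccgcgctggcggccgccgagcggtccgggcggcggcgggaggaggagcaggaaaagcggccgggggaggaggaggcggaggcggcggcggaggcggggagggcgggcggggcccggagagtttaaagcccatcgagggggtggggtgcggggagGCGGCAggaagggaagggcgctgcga
Mest: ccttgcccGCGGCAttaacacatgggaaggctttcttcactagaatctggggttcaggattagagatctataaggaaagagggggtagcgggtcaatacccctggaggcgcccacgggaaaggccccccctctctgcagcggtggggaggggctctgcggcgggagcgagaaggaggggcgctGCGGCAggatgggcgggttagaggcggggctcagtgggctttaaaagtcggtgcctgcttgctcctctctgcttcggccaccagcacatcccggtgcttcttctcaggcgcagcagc
Igf2: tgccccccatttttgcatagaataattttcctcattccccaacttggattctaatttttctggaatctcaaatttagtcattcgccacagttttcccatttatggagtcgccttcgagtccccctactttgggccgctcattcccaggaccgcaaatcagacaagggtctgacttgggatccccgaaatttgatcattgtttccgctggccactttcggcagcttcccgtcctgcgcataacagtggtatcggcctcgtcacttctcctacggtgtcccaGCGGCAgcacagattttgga
Meg3: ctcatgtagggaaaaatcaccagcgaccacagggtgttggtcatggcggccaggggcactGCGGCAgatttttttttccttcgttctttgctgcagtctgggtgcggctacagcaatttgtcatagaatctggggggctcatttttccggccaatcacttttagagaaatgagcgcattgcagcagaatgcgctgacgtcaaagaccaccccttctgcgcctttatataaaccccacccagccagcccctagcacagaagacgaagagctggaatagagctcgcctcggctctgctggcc

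H19 is itself a host transcript, since the hairpin of miR-675 lies inside the H19 gene. The mature microRNAs from RefSeq are shown with their seed, bases 2 to 8, in capitals, because H19 was the member that varied most (chr7:142577112-142577133 and chr7:142577078-142577099, minus strand).
mmu-miR-675-5p: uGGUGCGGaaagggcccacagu
mmu-miR-675-3p: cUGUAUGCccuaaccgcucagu
The seeds of the 2 arms are different. Mir675 was listed at 0 FPKM in all 4 libraries, as was Mir335, which lies inside the Mest gene, and libraries of polyadenylated RNA measure such short RNAs poorly.

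Most members were high in the WT induced library and close to each other in the remaining libraries. The summed FPKM of the 10 genes was 41.7 in the WT control, 33.5 in the KO control, 126 in the WT induced and 43.7 in the KO induced library. Ndn was the most abundant member in the WT control, KO control and KO induced libraries, where it held 50.9%, 42.3% and 49.9% of this sum. In the WT induced library Grb10 was the most abundant with 36.5%, H19 followed with 24.4%, and Ndn held 17.6%. H19 held at most 4.03% elsewhere.

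**Figure D1:**
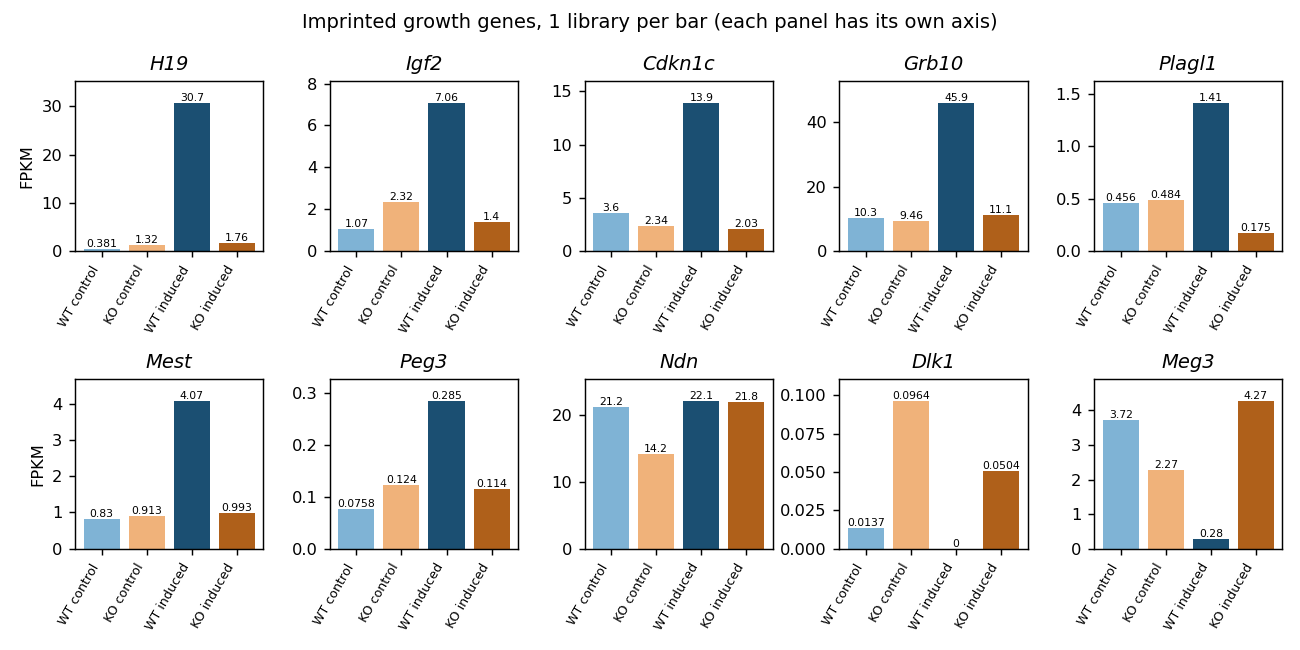
FPKM of each imprinted growth gene in the 4 libraries, with 1 bar per library and a separate axis from 0 in each panel. The WT induced bar stands above the others for H19 (30.7 FPKM), Igf2, Cdkn1c, Grb10, Plagl1, Mest and Peg3, about level with them for Ndn, and below them for Meg3 (0.280 FPKM) and Dlk1.

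H19 and Igf2 are neighbours on chromosome 7 that share enhancers, the first a noncoding RNA that restrains growth and the second the fetal growth factor. H19 was at 0.381 FPKM in the WT control, 1.32 in the KO control, 30.7 in the WT induced and 1.76 in the KO induced library. It was therefore low in the libraries other than WT induced, although the KO induced library still differed from the WT control library by a log2 ratio of 1.001, just past 2-fold. The WT induced level was 17.4-fold that of the KO induced library and 80.5-fold that of the WT control library, with the latter resting on a low value. Igf2 was at 1.07, 2.32, 7.06 and 1.40 FPKM in the same order. Its WT induced value was also the highest, by 5.05-fold over the KO induced library and by 6.60-fold over the WT control library. The order of the other libraries differed between the genes, with Igf2 higher in the KO control than in the KO induced library and H19 the reverse. The antisense transcript Igf2os was at most 0.0113 FPKM.

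Cdkn1c and Grb10 both restrain growth, the first as an inhibitor of cyclin-dependent kinases and the second as an adaptor that dampens insulin and IGF receptor signals. Cdkn1c was at 3.60, 2.34, 13.9 and 2.03 FPKM in the WT control, KO control, WT induced and KO induced libraries. The WT induced value was 6.84-fold the KO induced one and 3.86-fold the WT control one. Grb10 was the most abundant of the members that differed, at 10.3, 9.46, 45.9 and 11.1 FPKM. Its level in the 3 other libraries spanned a log2 range of only 0.21, and the WT induced level lay 1.95 above the highest of them.

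Plagl1 is a zinc finger transcription factor that, in the mouse, regulates other imprinted genes, H19, Igf2 and Cdkn1c among them. It was at 0.456, 0.484, 1.41 and 0.175 FPKM, so it reached 1 FPKM only in the WT induced library. This was 8.04-fold the KO induced value, but the gap to the next library was 0.70 on the log2 scale, below the size rule. Mest, an alpha/beta hydrolase gene linked to growth of mesodermal tissue and fat, was at 0.830, 0.913, 4.07 and 0.993 FPKM. The other libraries lay within a log2 range of 0.12 of each other, and the WT induced value was 4.10-fold the KO induced one. Mest also reached 1 FPKM only in that library.

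Peg3, a zinc finger gene of fetal growth and maternal behaviour, remained below 1 FPKM in every library. Its values were 0.0758, 0.124, 0.285 and 0.114 FPKM, again highest in the WT induced library, but too low to be counted. Its antisense neighbour Peg3os was at 0.177, 0.150, 0.544 and 0.0501 FPKM, and the reads of the pair cannot be told apart when the use of the strand is not stated. Ndn, which encodes necdin, a protein that restrains proliferation and is found in neurons and mesenchymal precursors, was at 21.2, 14.2, 22.1 and 21.8 FPKM. Ndn was lowest in the KO control library, and its WT induced value lay only 0.01 above the KO induced one on the log2 scale.

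Dlk1 and Meg3 lie in a single cluster on chromosome 12 and are expressed from opposite alleles. Dlk1, a transmembrane protein of the Notch ligand type that holds back fat cell formation and is also known as preadipocyte factor, was barely measured. It was at 0.0137, 0.0964 and 0.0504 FPKM in the WT control, KO control and KO induced libraries and was listed at 0 in the WT induced library. Meg3, a noncoding RNA, was at 3.72, 2.27, 0.280 and 4.27 FPKM in the WT control, KO control, WT induced and KO induced libraries. It was the only member above 1 FPKM that was lowest in the WT induced library, at a level 13.3-fold below the WT control and 15.3-fold below the KO induced one. H19, Cdkn1c and Grb10, which like Meg3 are expressed from the maternal allele, were highest there, so the libraries did not divide the members by parental allele.

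**Figure D2:**
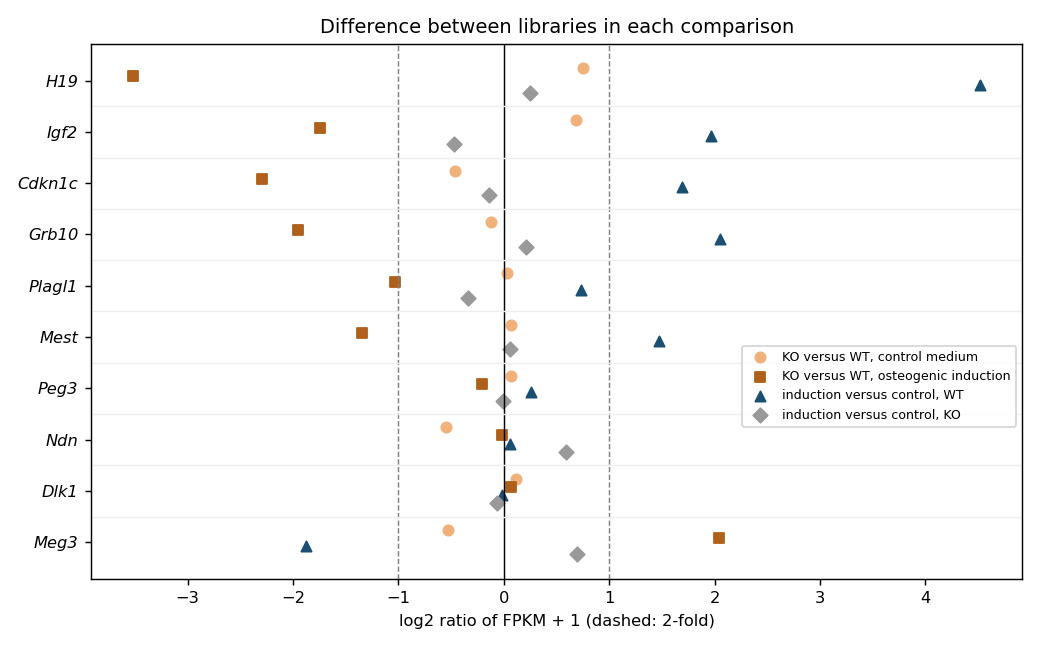
Log2 ratio of FPKM + 1 for each member in the 4 comparisons, 1 symbol per comparison, with dashed lines at 2-fold. The comparisons that include the WT induced library (squares and triangles) reach -3.52 and 4.52 for H19, while those without it (circles and diamonds) stay between the dashed lines for every member.

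In control medium, the question was how KO cells differ from WT cells without induction. Of the 10 members, 6 were tested, and 0 of these were higher or lower by the size rule in the KO library. The share of all 11845 genes past the rule was 2.4%, with 0.929% higher and 1.47% lower. A count of 0 among 6 genes tested lies near the background. The largest ratios were those of H19 (0.75) and Igf2 (0.68), both higher in the KO library, followed by Ndn (-0.55), Meg3 (-0.53) and Cdkn1c (-0.46). In terms of FPKM, H19 was 3.47-fold and Igf2 2.17-fold the WT control value, at levels of 2.32 FPKM or less. Plagl1, Mest, Peg3 and Dlk1 were below 1 FPKM in both libraries and were not tested. The median log2 ratio of the 10 members was 0.05, beside 0 over all 24319 entries and -0.02 over the genes tested.

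Under osteogenic induction, 6 members were lower in the KO library than in the WT library, 1 was higher, 1 was within the rule and 2 were below 1 FPKM. The share of all 11936 genes past the rule was 10.7%, with 5.4% lower and 5.27% higher. The members were chosen for H19 in this contrast, so these counts describe the choice and support nothing further. The lower genes were H19 (log2 ratio -3.52), Cdkn1c (-2.30), Grb10 (-1.95), Igf2 (-1.75), Mest (-1.35) and Plagl1 (-1.04), just past the rule, and the higher gene was Meg3 (2.04). Among all genes tested, H19 had the rank 40 from the lowest ratio, Cdkn1c 80, Grb10 120, Igf2 154, Mest 300 and Plagl1 595, and Meg3 had the rank 124 from the highest. The median of the 10 members was -1.19, beside 0 over all entries and -0.02 over the genes tested. With the WT control library as the comparator instead of the WT induced one, H19 alone of the members was past the rule, in the opposite direction (1.001), beside 2.83% of all genes.

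**Figure D3:**
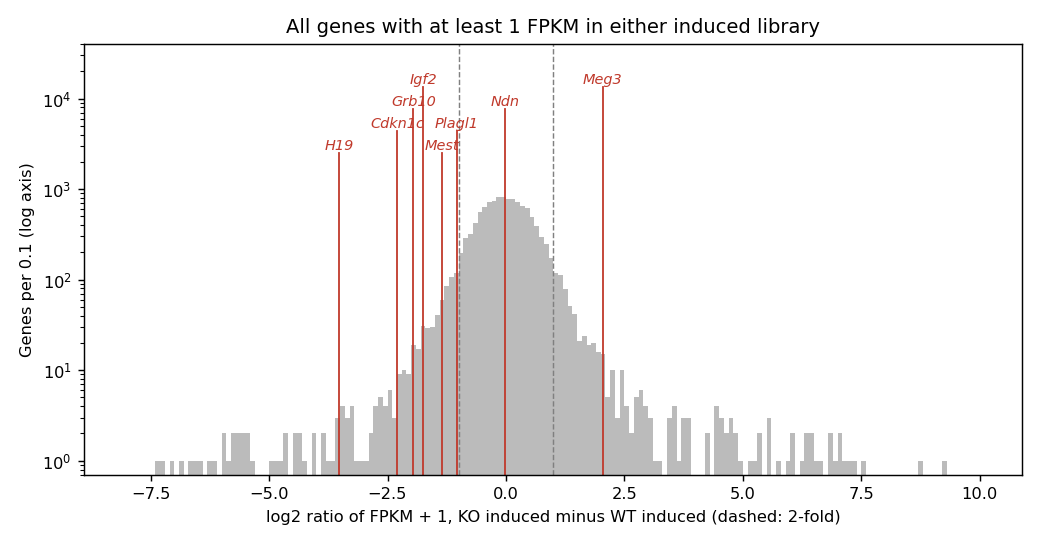
Histogram of the log2 ratio of FPKM + 1, KO induced minus WT induced, over the 11936 genes with at least 1 FPKM in either induced library, with a log axis for the number of genes per bin and dashed lines at 2-fold. Red lines mark the 8 members measured at this level, with H19 at -3.52, Ndn near the centre at -0.01 and Meg3 at 2.04.

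Induction compared with control in cells labelled WT is a separate contrast, with the WT control library as comparator. It shares the WT induced library with the comparison of KO and WT under induction. Since H19 was seen to be high in that library, the counts here also describe the choice. By the size rule, 5 members were higher with induction, 1 was lower, 2 were within the rule and 2 were below 1 FPKM, beside 15.2% of all 12094 genes past the rule, 7.22% higher and 7.95% lower. H19 had a log2 ratio of 4.52, Grb10 of 2.05, Igf2 of 1.96, Cdkn1c of 1.69 and Mest of 1.47. Plagl1 (0.73) and Ndn (0.05) were within the rule, and Meg3 had a ratio of -1.88. The libraries of cells labelled KO were among the low ones when H19 was seen to be high in 1. For induction in these cells, 0 of the 6 members tested passed the rule, beside 2.61% of all 11748 genes, 1.54% higher and 1.07% lower. Plagl1, Mest, Peg3 and Dlk1 were below 1 FPKM in both KO libraries and were not tested. The largest ratios there were those of Meg3 (0.69) and Ndn (0.59), while H19 was at 0.25 and Igf2 at -0.47. The median of the members was 0.02 in cells labelled KO and 1.10 in cells labelled WT, beside 0 over all entries in both. Whether the response to induction differs between the labels was not tested, since each rests on 1 library against 1.

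Over the 12294 genes with at least 1 FPKM in any library, the WT induced library was the highest by 2-fold or more against the nearest of the other libraries in 2.66% and the lowest in 2.77%. Of the members, H19, Grb10, Cdkn1c, Mest and Igf2 were highest in this way and Meg3 was lowest. No member was highest or lowest by 2-fold in the WT control, KO control or KO induced library, where 0.659%, 0.358% and 0.48% of all genes were. The members were chosen after H19 was seen to be high in the WT induced library. These counts therefore describe the choice and support nothing further.

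Markers of other cells and states moved with the same library. The summed FPKM of 12 stromal and osteoblast markers was 8786 in the WT induced library and 2691 to 4093 in the others, most of it from the bone matrix gene Spp1, at 6442 FPKM in the WT induced library. Of the 12 markers, 10 were tested under induction. Of these 10, 6 were lower in the KO library and 0 were higher, beside 5.4% and 5.27% of all genes. The bone matrix gene Ibsp was at 177 FPKM in the WT induced library and at 1.11 to 1.98 FPKM elsewhere. The osteocalcin gene Bglap (0.217 FPKM against 0.577 to 1.82) and the chemokine gene Cxcl12 (89.6 FPKM against 112 to 163) were instead lowest there. The sum of 10 macrophage markers was 10088 in the WT induced library and 11704 to 13589 in the others, of which Lyz2 gave 6763 in the WT induced library. The macrophage markers did not move together. For induction in cells labelled WT, 3 of 10 were lower and 1 was higher by the rule, beside 7.95% and 7.22% of all genes. The monocyte receptor gene Cd14 was at 37.8 FPKM in the WT induced library against 212 to 345 FPKM, while the mannose receptor gene Mrc1 was at 266 FPKM against 63.6 to 137 FPKM. The sum of 5 adipocyte markers was 265 against 347 to 571, of which Fabp4 gave 171 in the WT induced library and 196 to 414 elsewhere. For induction in cells labelled KO, 1 of the 4 tested was higher, Fabp4 (log2 ratio 1.08), beside 1.54% of all genes. Plin1, a coat protein of lipid droplets, was at 0 in the WT induced library and at 0.126 to 0.403 FPKM elsewhere, too low to be counted. For induction in cells labelled WT, 2 of the 4 tested were lower, Pparg (log2 ratio -1.43) and Adipoq (-1.40), beside 7.95% of all genes. Skeletal muscle is a tissue in which the mouse keeps H19 expressed after birth. Of 5 markers of this tissue, the defining regulators Myod1 and Myog were at 0 in all 4 libraries. The sum was 1.05 FPKM in the WT induced library and 10.6 to 19.5 FPKM in the others. The 2 markers tested, Acta1 and Des, were lower for induction in cells labelled WT (log2 ratios -3.33 and -1.39), beside 7.95% of all genes. Both were higher in the KO library under induction (2.21 and 1.97), beside 5.27%. The part of stromal, macrophage and fat cell content and of the sex of the cells in the member values was not tested.

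The neighbours of the members in their imprinted clusters were measured less well. Of 35 such genes, 8 were at 0 in every library and 21 were below 1 FPKM throughout. Under induction, 3 of the 14 tested were higher and 0 lower in the KO library, beside 5.27% higher and 5.4% lower over all genes. In control medium 1 of 14 was higher, beside 0.929%, and for induction in cells labelled WT 0 of 13 were higher and 2 lower, Rian and Slc22a18, beside 7.22% and 7.95%. Rian, a noncoding RNA transcribed in the same direction as Meg3 and from the same allele, was at 2.22, 2.35, 0.467 and 2.52 FPKM in the WT control, KO control, WT induced and KO induced libraries, and was thus low in the WT induced library, as Meg3 was. Mirg, the next noncoding RNA of that cluster, was at most 0.189 FPKM and was listed at 0 in the WT induced library. Dio3, the deiodinase at the far end of the cluster, was instead at 0.568, 2.44, 0.755 and 4.42 FPKM, higher in both libraries labelled KO, with log2 ratios of 1.13 in control medium and 1.63 under induction. Slc22a18, a transporter gene close to Cdkn1c, was at 4.69, 3.23, 0.924 and 4.35 FPKM, lowest in the WT induced library where Cdkn1c was highest. The mitochondrial ribosomal gene Mrpl23, a neighbour of H19, was within the rule (log2 ratio 0.71 under induction). The tetraspanin gene Cd81, also in the neighbour list, was within it too (-0.22).

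Of 28 imprinted genes elsewhere in the genome, 8 were below 1 FPKM throughout. Under induction, 3 of the 20 tested were lower and 1 was higher in the KO library, beside 5.4% and 5.27% over all genes. In control medium 1 of 20 was higher, beside 0.929%, and among cells labelled WT 3 of 20 were higher with induction and 0 lower, beside 7.22% and 7.95%. Asb4, which encodes a subunit of ubiquitin ligases, was at 1.43, 0.333, 17.3 and 0.508 FPKM, with log2 ratios of -3.60 for KO against WT under induction and 2.91 for induction in WT cells. Peg10 and Tfpi2, genes of the same cluster on chromosome 6, were also higher in the WT induced library, Peg10, a gene derived from a retrotransposon, at 1.49, 1.03, 4.23 and 1.12 FPKM and the protease inhibitor gene Tfpi2 at 1.27, 0.719, 4.02 and 1.40 FPKM. Sgce, which shares a promoter region with Peg10, was at 12.5, 10.6, 13.5 and 11.4 FPKM, highest in the WT induced library but within the rule (log2 ratio -0.23 for KO against WT under induction). The other genes of that cluster in the list were within the rule or below 1 FPKM. The paraoxonase gene Pon2 was at 88.5, 89.8, 67.7 and 82.0 FPKM, lowest in the WT induced library, and its relative Pon3 was at 23.9, 34.2, 40.3 and 24.2 FPKM, highest there. Ppp1r9a was at 0.352 to 0.423 FPKM, and the calcitonin receptor gene Calcr was at 0 throughout. The proteoglycan gene Dcn, imprinted in the mouse placenta, was at 1.72, 17.5, 2.13 and 12.0 FPKM and thus followed the genotype label in both media. Igf2r, the receptor that clears IGF2 and is imprinted in the mouse, had log2 ratios of -0.81 under induction and 0.98 for induction in WT cells, within the rule. Medians over all genes of the neighbour list and of this list lay between -0.03 and 0.01 in the 4 comparisons, beside 0 over all 24319 entries, and say little, since genes near 0 FPKM have ratios near 0 by construction.

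**Figure D4:**
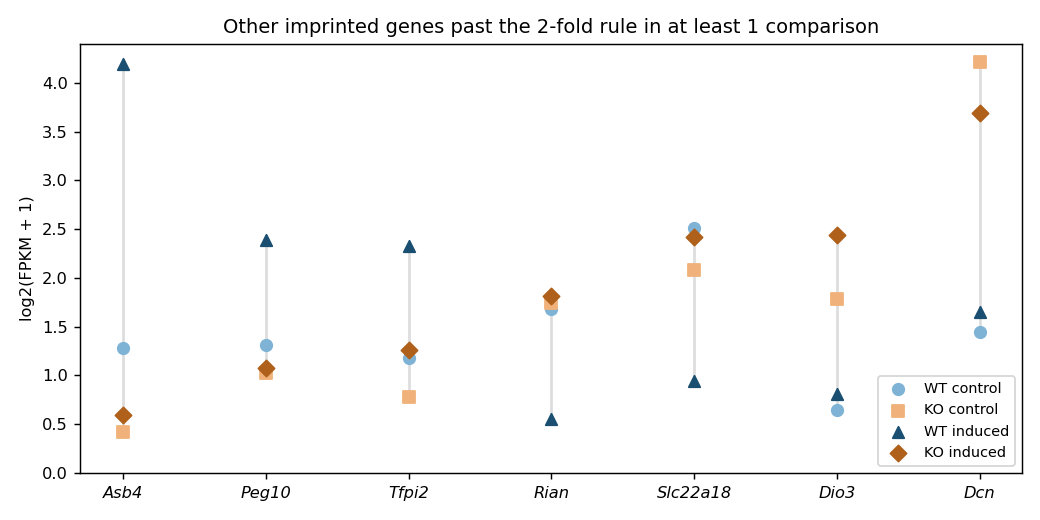
Levels as log2(FPKM + 1) of the 7 imprinted genes outside the 10 that passed the 2-fold rule in at least 1 comparison, with 1 symbol per library. The WT induced library (triangles) is highest for Asb4, Peg10 and Tfpi2 and lowest for Rian and Slc22a18, while Dio3 and Dcn are higher in both libraries labelled KO.

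Of 20 genes for IGF2 signalling and for partners of the members, 2 of the 17 tested were lower in the KO library under induction and 0 were higher, beside 10.7% of all genes past the rule in either direction, so the count is near the background. In control medium 0 of 18 passed the rule, beside 2.4%. Irs1, which carries the signal of insulin and IGF receptors, was at 5.03, 4.59, 12.8 and 1.74 FPKM, with a log2 ratio of -2.33 under induction. It was the only gene of the 18 tested in this list past the rule for induction in cells labelled KO (-1.03), beside 2.61% of all genes, while the same comparison in cells labelled WT gave 1.19. Igf2bp2, which encodes an RNA-binding protein of the Igf2 transcript, was at 3.98, 4.59, 10.2 and 3.97 FPKM (log2 ratio -1.18 under induction). The IGF receptor gene Igf1r (-0.51) and the insulin receptor gene Insr (-0.85) were within the rule. Among cells labelled WT, beside 15.2% of all genes past the rule, 3 of 18 genes of the list were higher with induction, Irs1, Igf2bp2 and Notch3 (1.09), a receptor gene, and 1 was lower, the mitotic kinase gene Cdk1 (-1.29).

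Of 20 factors that set or keep imprints, 15 were tested. Under induction 1 was higher in the KO library and 0 were lower, and for induction in cells labelled WT the same gene, Uhrf1, was lower and 0 were higher, both counts at or below the share over all genes (10.7% and 15.2% in either direction). In control medium 0 passed the rule, beside 2.4%. Uhrf1, which brings the maintenance methyltransferase DNMT1 to replicating DNA, was at 11.7, 11.8, 2.31 and 9.82 FPKM (log2 ratio 1.71 for KO against WT under induction and -1.94 for induction in WT cells). Dnmt1 was at 16.7, 20.1, 8.85 and 16.7 FPKM (0.84), also lowest in the WT induced library but within the rule. Zfp57 was at 0.640 to 1.47 FPKM, and Ctcf, whose protein binds the imprinting control region between Igf2 and H19, was at 15.4 to 17.6 FPKM. The cofactor Trim28 had a log2 ratio of 0.23 under induction.

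The genes whose profile over the 4 libraries lay closest to a member were sought among 8707 genes with at least 5 FPKM in one library. Small RNA genes, entries shared between genes and predicted genes had been left out of these 8707. The measure was the root mean square distance of log2(FPKM + 1) after centring each gene. Closest to H19 were Htr1b, a serotonin receptor gene (distance 0.24), the fibrillar collagen gene Col11a1 (0.30), Itm2a (0.37), the ectoenzyme gene Cd38 (0.38) and the ephrin receptor gene Epha3 (0.39). Col11a1 was at 0.515, 0.727, 20.4 and 1.85 FPKM in the usual order. Closest to Grb10 were Srpx2 (0.09), the chromatin protein gene Hmga2 (0.11), Tom1l1 (0.11), the parathyroid hormone receptor gene Pth1r (0.12) and the tenascin gene Tnn (0.12). Pth1r was at 3.72, 2.61, 14.9 and 3.48 FPKM. Closest to Igf2 were Zbed6 (0.01), which lies within an intron of another gene, the Wnt receptor gene Fzd1 (0.05), the tight junction gene Tjp1 (0.06), Eps8 (0.07) and Tnfrsf11b (0.08), which encodes osteoprotegerin. Zbed6 was at 1.71, 3.43, 9.59 and 2.17 FPKM. With 4 libraries, 1 of which stood apart, many genes share such a profile by this measure.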

How the data were processed

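RNA of 4 libraries, 1 per genotype label and medium, was analysed from 2 deposited tables. The deposited values were FPKM, made by the authors with TopHat and Cufflinks on mm9 per the submitters' processing notes. Not given in the sources used here were tool versions, the annotation, the use of the strand and the scaling between the tables, so induction and control are set side by side across separate tables. Rows whose symbol had turned into a date, 27 of 24346, were dropped (up to 0.169% of a library's FPKM).

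Log2 ratios used a pseudocount of 1, a minimum of 1 FPKM in one library and a size rule of 2-fold. They were computed with Python 3.11.15, pandas 2.3.3 and NumPy 2.4.6. A check on simulated data used large changes in well expressed genes without noise. It therefore covers the arithmetic alone, and not the reliability of the rule for low genes. Read totals are unknown. The steps of low values gave approximate depths relative to WT control of 0.874 to 0.886 for KO control, 0.807 to 0.871 for WT induced and 1.10 to 1.11 for KO induced over 9 settings of the low-value limit and smoothing, set after first estimates were seen; no result uses them. Genes with at least 1 FPKM numbered 11392 to 11542 per library. The sequences came from RefSeq tables on GRCm38.p6, and no coordinate was carried between that build and mm9.

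The members, the 4 lists with 103 genes, the markers and the alternatives were chosen with earlier results of these data known. The naming rule took all members, up to 6 genes past the size rule per list and comparison or the 2 with the largest ratios, and the 5 genes closest in profile to H19, Grb10 and Igf2. Igf2os, Peg3os, Mirg, Mrpl23, Cd81, Sgce, Pon2, Pon3, Ppp1r9a, Calcr, Igf2r, Igf1r, Insr, Dnmt1, Zfp57, Ctcf, Trim28 and the single markers were named in addition, after their values had been seen. Alternatives covered the pseudocount, the minimum, the scaling, the size rule and the WT induced library.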

Additional observations from a re-analysis of the deposited data

Results flagged for a closer look

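In 5 members the KO to WT difference went in opposite directions in the 2 media, with at least 1 of them past the size rule. The difference between the log2 ratios, induction minus control medium, was -4.27 for H19, -2.43 for Igf2, -1.41 for Mest, -1.06 for Plagl1 and 2.57 for Meg3. The ratios in control medium were 0.75, 0.68, 0.06, 0.03 and -0.53 in the same order, within the size rule, or below 1 FPKM in both libraries for Mest and Plagl1. Each ratio rests on 1 library per group, so these differences between media were not tested. In all 5 members the ratio past the rule was the one with the WT induced library, where H19 had been seen to be high. Genotype, medium and the difference in sex markers cannot be told apart in that library.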

How the results depend on the processing

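With 1 library per group, no left-out replicate could be tried. No paired analysis was possible because each group held 1 library and the labels give no replicate numbers. The count of members past the rule in control medium, 0, became 2 (H19 and Igf2) with a pseudocount of 0.1 or a size rule of 1.5-fold. Under induction the count of 7 became 3 with a pseudocount of 5, 4 with at least 5 FPKM in one library, and 1 with the WT control library in place of the WT induced one. In that last setting the ratios of H19 (1.001), Igf2 (0.21) and Grb10 (0.094) reversed. For induction in cells labelled WT the count of 6 became 3 with a pseudocount of 5, 4 with at least 5 FPKM in one library, where Meg3 and Mest were not tested, 7 with a pseudocount of 0.1 or a size rule of 1.5-fold, and 1 with the KO induced library in place of the WT induced one, where Cdkn1c (-0.60) and Meg3 (0.16) reversed. This last setting was chosen after seeing the data. For induction in cells labelled KO the count of 0 became 2 (Meg3 and Ndn) with a size rule of 1.5-fold. Scaling by median ratios, or without small RNA genes and Rn45s, left all 4 counts at 0, 7, 6 and 0. Of 207 member ratios under the alternatives, 183 stayed on the same side of the rule, 19 crossed it and 5 that had been past it changed sign. The settings that change only the minimum leave each ratio as it was and skip members below it. Their ratios could only stay the same, so the total of 183 does not measure how stable the ratios are. Apart from the replaced libraries, the count with a pseudocount of 5 is lower because that scale shrinks the ratios of genes at a few FPKM, such as Meg3, Mest and Plagl1.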
